A study of Mus musculus with 12 samples.

Results

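The BCL2 family survival and death genes described here are Bcl2, Bcl2l1, Mcl1, Bcl2a1a, Bcl2a1b, Bcl2a1d, Bcl2l11, Bid, Bax and Bak1. They were picked by gene name and are 10 of the 32246 genes in the deposited expression table. All 10 passed the filter on low values, among 11165 genes that were tested. RNA was sequenced from mouse macrophages that had been raised from bone marrow over 7 days in 50 ng/mL of GM-CSF, a growth factor that keeps myeloid cells alive. The cells formed 3 groups, each with 4 libraries of total RNA. The cells called PLG+EACA+RNase were given, for 24 h, plasminogen (PLG) treated beforehand with EACA and with RNases. The cells called PLG+EACA were given, for 24 h, plasminogen treated beforehand with EACA alone. The third group was left untreated. Plasminogen is the blood-borne precursor of the protease plasmin, and EACA is a lysine analogue that occupies the sites by which plasminogen binds other molecules. All 3 groups share the same growth in GM-CSF, and the labels name no genotype, strain or age. No group received EACA or RNases without plasminogen, so what sets either treatment apart from untreated cells cannot be given to a single agent. The treated groups differ, per the labels, in the exposure to RNases. Whether the libraries within a group are separate animals or cultures is not given by the labels, so the p-values measure only the spread between these samples.

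Proteins of the BCL2 family decide whether the outer membrane of the mitochondrion stays intact. The survival proteins BCL2, BCL-XL (gene Bcl2l1), MCL1 and A1 (the Bcl2a1 genes) hold the effectors BAX and BAK in check, and the BH3-only proteins BIM (gene Bcl2l11) and BID release or activate those effectors, after which cytochrome c leaves the mitochondrion and caspases are switched on. Neutrophils are known to depend on MCL1, and A1 is found mainly in blood cells; the genes of both respond to growth factors and inflammatory signals. Much of the family's control lies in protein cleavage, binding and turnover, which RNA does not show.

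Each library held 12940888 to 22677042 counted reads, worked out from the smallest steps between values. Levels are FPKM, fragments per kilobase of gene length scaled to the library's total count. A single member's value in a library rested on 308 to 9588 reads. All 8 macrophage markers passed the filter. Their summed level was 4079.8 to 4641 FPKM in PLG+EACA+RNase cells, 4154 to 6084 FPKM in PLG+EACA cells and 5324 to 5931 FPKM in untreated cells. The summed level of 10 neutrophil markers, of which 5 were tested, was 24.9 to 60.4 FPKM in PLG+EACA+RNase cells, 26.1 to 70.3 FPKM in PLG+EACA cells and 14.2 to 58.2 FPKM in untreated cells. Summed dendritic cell markers stayed between 90.4 and 160.4 FPKM, and summed T cell and B cell markers at or under 0.76 FPKM, in every library. Of the 7 dendritic cell markers 4 were tested. Ccr7 alone ran from 59.6 to 136.7 FPKM and Batf3 from 13.3 to 40.5 FPKM. The others reached at most 5.75 (Zbtb46), 1.31 (Dpp4), 0.78 (Cd209a), 0.627 (Flt3) and 0.299 FPKM (Xcr1). Summed markers of eosinophils, of mast cells and basophils, and of stroma and endothelium reached at most 10.3, 6.90 and 21.2 FPKM, those of erythroid cells 1.46 FPKM and those of NK cells 0.104 FPKM. Among the macrophage markers Lyz2 alone ran from 3356 to 5261 FPKM, while Mertk and Fcgr1 went down to 5.19 and 5.68 FPKM. Only 2 of 4 listed erythroid markers and 3 of 4 listed NK cell markers were in the deposited table. No marker present there was at 0 in all libraries, and the part of other cells in the results was not tested. Against untreated cells, the median log2 fold change of all tested genes was -0.26 in PLG+EACA cells and -0.20 in PLG+EACA+RNase cells. Results of the 10 genes are therefore also given after median-of-ratios scaling, which divides each library by the median ratio of its genes to their mean over libraries and brings these medians to -0.0004 and -0.03.

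Levels per length put the same genes in the same order in all 3 groups. Bcl2a1d was highest, at 176.2 ± 20.5 FPKM in PLG+EACA+RNase cells, 225.4 ± 10.4 FPKM in PLG+EACA cells and 184.4 ± 4.93 FPKM in untreated cells (SD, n = 4 each). Mcl1, Bcl2a1a, Bcl2a1b, Bak1, Bax, Bcl2l1, Bid and Bcl2l11 followed. Bcl2 was lowest, at 2.68 ± 0.318 FPKM in PLG+EACA+RNase cells, 2.29 ± 0.144 FPKM in PLG+EACA cells and 4.08 ± 0.0947 FPKM in untreated cells (SD, n = 4 each). Most neighbours in this order were separated in every library of a group. The exceptions were Bak1 and Bax in PLG+EACA+RNase cells, Bcl2a1a and Bcl2a1b in PLG+EACA cells, and Bid and Bcl2l11 in both PLG+EACA and untreated cells, whose ranges overlapped. Among the 10 genes, Bcl2 was the survival gene with the least RNA per length, and the 3 A1 genes and Mcl1 stood above it in every library.

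**Figure D1:**
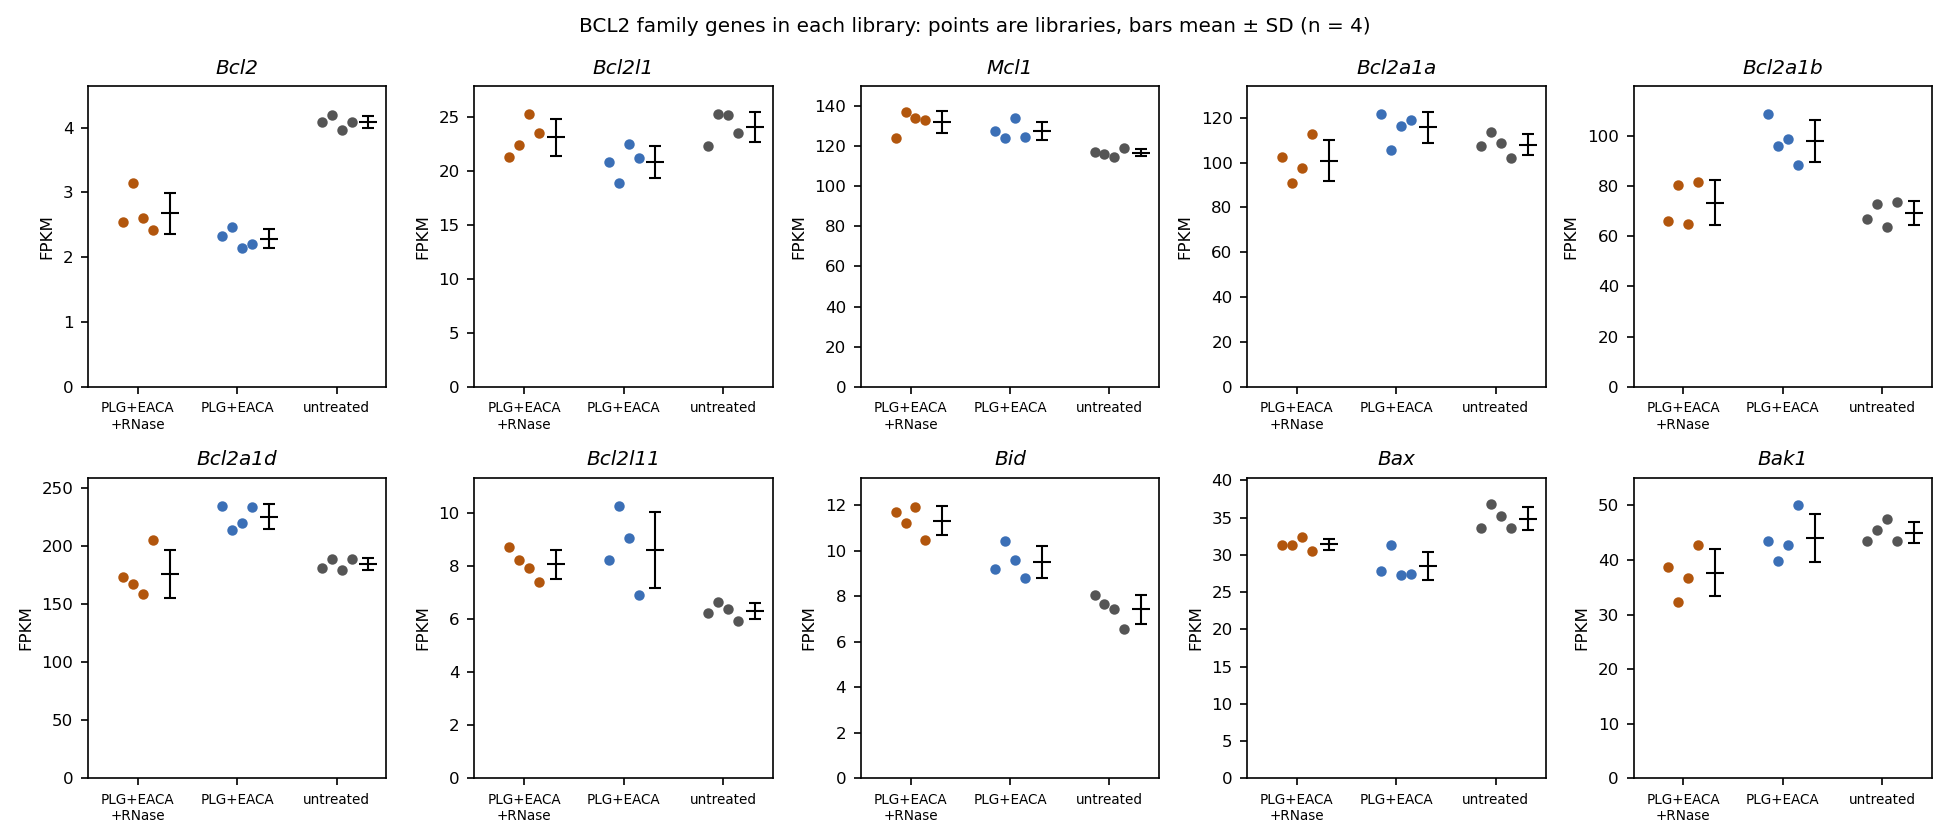
FPKM of each of the 10 genes (vertical axes, starting at 0) in the 12 libraries, with PLG+EACA+RNase, PLG+EACA and untreated cells from left to right, points for libraries and bars for mean ± SD (n = 4). Bcl2 lies lower in all 8 treated libraries (2.14 to 3.14 FPKM) than in untreated cells (3.97 to 4.20 FPKM), while Bid lies highest in PLG+EACA+RNase cells and lowest in untreated cells.

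Against untreated cells, 8 of the 10 genes passed the test in PLG+EACA cells, 5 higher and 3 lower (limma, Benjamini-Hochberg adjusted p under 0.05). Of all tested genes 68.3% passed in that comparison, 14.9% higher and 53.4% lower, so a count of genes that changed is near the background and is no result about this family. After median-of-ratios scaling 6 members were higher and 1 was lower, where 53% of all genes passed, 27.8% higher and 25.2% lower. The median log2 fold change of the members was 0.11 as deposited and 0.40 after scaling. The groups did not overlap for 7 of the 10 genes, against 64.6% of all genes (13.8% higher and 50.9% lower).

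In PLG+EACA+RNase cells against untreated cells, 3 of the 10 genes were higher and 3 lower, where 64.4% of all tested genes passed, 16% higher and 48.4% lower. After median-of-ratios scaling 4 were higher and 1 lower, where 55.1% of all genes passed, 25% higher and 30.2% lower. The members' median was -0.06 as deposited and 0.12 after scaling, and the groups did not overlap for 6 genes, against 61.7% of all genes (15% higher and 46.7% lower). In PLG+EACA+RNase cells against PLG+EACA cells, 1 gene was higher and 2 were lower, where 20.8% of all genes passed, 12.1% higher and 8.73% lower. Scaling changed this to 0 higher and 4 lower, where 25% of all genes passed, 7.77% higher and 17.3% lower. The members' median was -0.01 as deposited and -0.11 after scaling, beside 0.04 and -0.05 for all genes. Scaling thus did not bring the median of all genes nearer to 0 in this comparison. The groups did not overlap for 3 genes, against 18.1% of all genes (10.4% higher and 7.68% lower). Both treatments were set against the same untreated libraries, so the first 2 comparisons are not independent of each other.

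**Figure D2:**
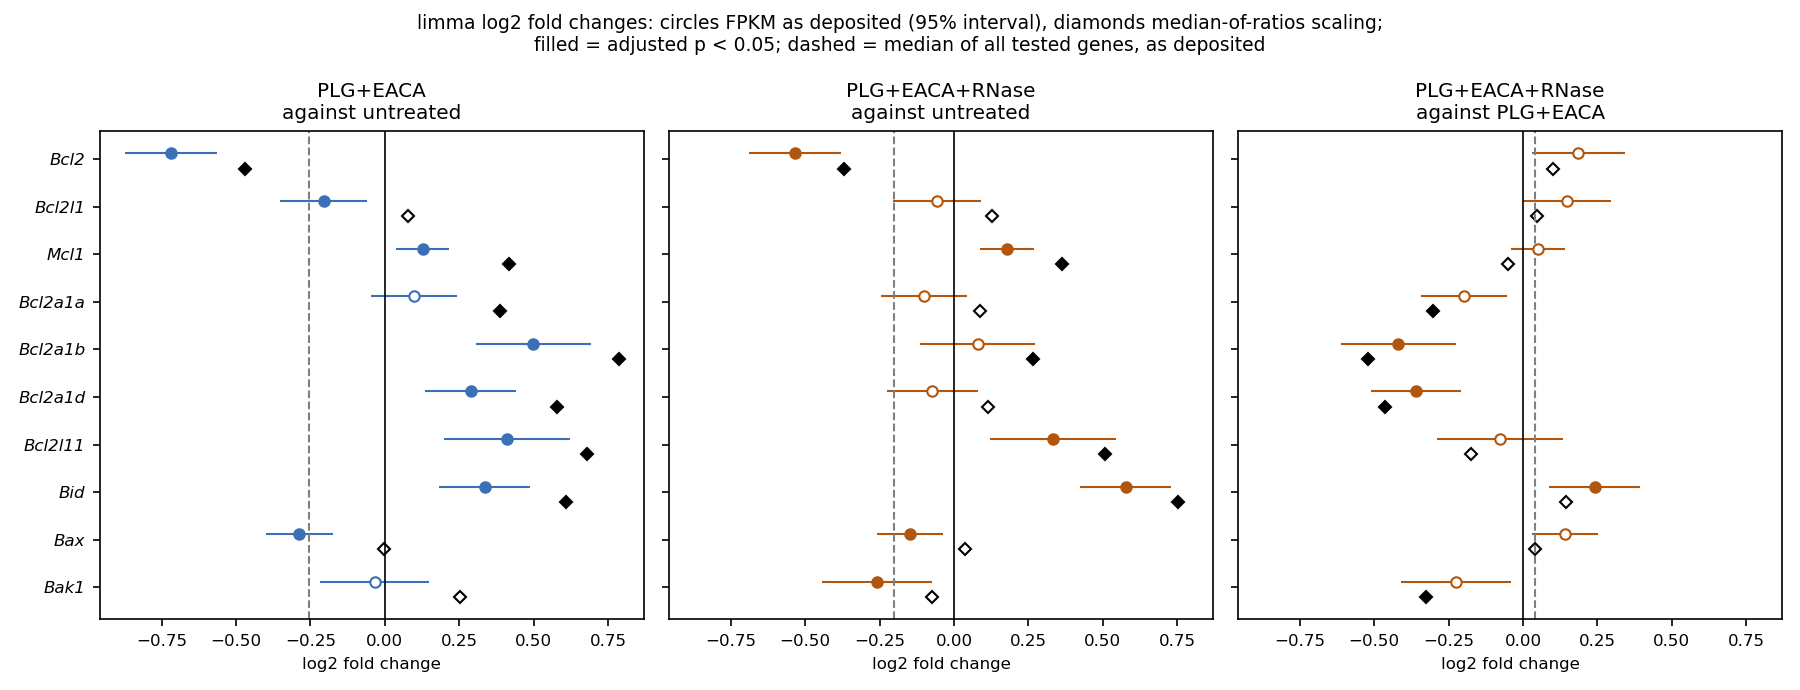
Log2 fold changes (horizontal axes) of the 10 genes in 3 comparisons, with circles for FPKM as deposited and their 95% intervals, diamonds for median-of-ratios scaling, filled symbols for an adjusted p under 0.05, and a dashed line at the median of all tested genes as deposited. Bcl2 lies left of 0 and Bcl2l11 and Bid right of 0 under both scalings in each comparison with untreated cells, while Bcl2a1b and Bcl2a1d lie left of 0 under both scalings in PLG+EACA+RNase cells against PLG+EACA cells.

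Bcl2 (chr1:106538178-106714274, minus strand, GRCm38), which encodes the survival protein that gave the family its name, had less RNA after both treatments. It was measured at 2.55, 3.14, 2.60 and 2.42 FPKM in PLG+EACA+RNase cells, at 2.33, 2.47, 2.14 and 2.21 FPKM in PLG+EACA cells and at 4.09, 4.20, 3.97 and 4.08 FPKM in untreated cells. Every treated library lay below every untreated one. Bcl2 fell by 0.72 on the log2 scale in PLG+EACA cells (SE 0.0711, adjusted p = 4.23e-06) and by 0.53 in PLG+EACA+RNase cells (SE 0.0711, adjusted p = 4.48e-05) against untreated cells. These are fold changes of log2(FPKM + 0.5), which understates the change of a gene this low. Both falls exceeded those of the median gene and passed after median-of-ratios scaling, at -0.47 and -0.37. Between the treatments the difference was 0.19, PLG+EACA+RNase over PLG+EACA, and did not pass (adjusted p = 0.0817, 0.0402 to 0.292 over the 20 alternatives, the lowest without PLG+EACA+RNase replicate 4). After scaling it was 0.10, the highest of these p-values. In bulk RNA, fewer cells that express a gene and less RNA per cell cannot be told apart.

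Bcl2l1 (chr2:152780668-152831728, minus strand), which encodes the survival protein BCL-XL, was measured at 21.3, 22.4, 25.3 and 23.5 FPKM in PLG+EACA+RNase cells, at 20.8, 18.8, 22.5 and 21.2 FPKM in PLG+EACA cells and at 22.3, 25.2, 25.2 and 23.5 FPKM in untreated cells. The ranges of all 3 groups overlapped. It fell by 0.20 on the log2 scale in PLG+EACA cells against untreated cells (SE 0.0672, adjusted p = 0.0168), which is less than the fall of the median gene, and median-of-ratios scaling turned the value to 0.08. This call was lost without untreated replicate 2 (adjusted p = 0.050003), untreated replicate 3 (0.0506) or PLG+EACA replicate 2 (0.0527), and over all alternatives the adjusted p ran from 0.0084 to 0.401. Values of a whole gene do not separate the long transcript of Bcl2l1, which protects cells, from the short one, which promotes death.

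Mcl1 (chr3:95658788-95663176, plus strand) encodes a short-lived survival protein. Its level was 123.8, 136.8, 134.0 and 133.1 FPKM in PLG+EACA+RNase cells, 127.4, 123.7, 133.7 and 124.7 FPKM in PLG+EACA cells and 116.7, 115.7, 114.7 and 118.9 FPKM in untreated cells. All 8 treated libraries lay above all 4 untreated ones, by a small margin. Mcl1 rose by 0.18 on the log2 scale in PLG+EACA+RNase cells (SE 0.0413, adjusted p = 0.0025) and by 0.13 in PLG+EACA cells (SE 0.0413, adjusted p = 0.0161) against untreated cells. After median-of-ratios scaling the differences were 0.36 and 0.42, and both passed. The call in PLG+EACA cells was lost without PLG+EACA replicate 3 (adjusted p = 0.0505, the highest of a range that began at 1.74e-05). The treatments differed by 0.05, with an interval of -0.04 to 0.14 (95%), and scaling turned this to -0.05.

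The A1 proteins are survival proteins of blood cells, and the mouse has several near-identical A1 genes on chromosome 9. Bcl2a1d lies at chr9:88723285-88731914 on the minus strand, Bcl2a1a at chr9:88956900-88962419 and Bcl2a1b at chr9:89199209-89207827 on the plus strand (GRCm38). Over their aligned transcripts (GENCODE M21) Bcl2a1d shared 98.8% of bases with Bcl2a1a and 99.1% with Bcl2a1b, and the pair of Bcl2a1a and Bcl2a1b shared 98.2%. Of all stretches of 100 bases, 54.7% in Bcl2a1d, 43.5% in Bcl2a1a and 31.1% in Bcl2a1b occurred unchanged in another copy, and at 50 bases these shares were 79.5%, 69.0% and 57.6%. How reads that match several copies were counted is not given in the sources used here, so the split of reads between copies is uncertain. The likeness reaches into the 180 bases before each gene start, shown here because 3 of the 10 genes carry nearly the same upstream sequence. The sequences are RefSeq's on GRCm38.p6, read 5′ to 3′ on the gene's strand, at chr9:88731915-88732094 (minus strand), chr9:88956720-88956899 and chr9:89199029-89199208 (plus strand), and the capitals mark GAGGAAGT.
Bcl2a1d: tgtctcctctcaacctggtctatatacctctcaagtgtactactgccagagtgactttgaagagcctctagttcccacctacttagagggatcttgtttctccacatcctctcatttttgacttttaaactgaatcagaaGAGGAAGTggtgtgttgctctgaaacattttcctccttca
Bcl2a1a: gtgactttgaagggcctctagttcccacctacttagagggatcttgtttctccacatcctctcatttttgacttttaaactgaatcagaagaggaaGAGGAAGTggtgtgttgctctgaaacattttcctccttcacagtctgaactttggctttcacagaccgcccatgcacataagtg
Bcl2a1b: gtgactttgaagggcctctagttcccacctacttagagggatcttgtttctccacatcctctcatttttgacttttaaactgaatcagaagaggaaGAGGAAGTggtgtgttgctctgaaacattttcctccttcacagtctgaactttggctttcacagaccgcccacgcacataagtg

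Bcl2a1a and Bcl2a1b were identical at 179 of these 180 bases. Bcl2a1d matched either of them at 129 of 136 aligned bases, with its window shifted because the annotated start lies further upstream. The letters GAGGAAGT, a form of the site of the ETS factor PU.1 that directs the macrophage lineage, were chosen after the sequences had been seen. They end 33 bases before the start of Bcl2a1d and 77 bases before those of Bcl2a1a and Bcl2a1b. On either strand, 2.44% of 32851 RefSeq promoter windows of 250 bases hold them, and among the 10 genes Bak1 does as well. The kappa B pattern GGGNNNNNCC was in 45.8% of windows, in that of every member other than the 3 A1 genes, and in none of theirs. The ISRE core TTTCNNTTTC and the GAS pattern TTCNNNGAA, in 2.98% and 7.02% of windows, were in no member's window. Both strands were searched, the patterns can overlap, and these matches are letters in a window rather than sites.

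RNA of the A1 genes was highest in PLG+EACA cells. Bcl2a1d was measured at 173.2, 167.1, 158.8 and 205.6 FPKM in PLG+EACA+RNase cells, at 234.4, 213.8, 219.5 and 234.0 FPKM in PLG+EACA cells and at 180.8, 188.6, 179.5 and 188.7 FPKM in untreated cells. The PLG+EACA libraries lay above all others, and PLG+EACA+RNase replicate 4 stood above the other 3 of its group. Bcl2a1d rose by 0.29 on the log2 scale in PLG+EACA cells against untreated cells (SE 0.0696, adjusted p = 0.0029). It fell by 0.36 in PLG+EACA+RNase cells against PLG+EACA cells (SE 0.0696, adjusted p = 0.0079).

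Bcl2a1b was measured at 66.3, 80.6, 65.1 and 81.7 FPKM in PLG+EACA+RNase cells, at 108.7, 96.1, 98.9 and 88.5 FPKM in PLG+EACA cells and at 66.9, 72.7, 63.5 and 73.7 FPKM in untreated cells. Again all 4 PLG+EACA libraries lay above the other 8. Bcl2a1b rose by 0.50 on the log2 scale in PLG+EACA cells against untreated cells (SE 0.0888, adjusted p = 0.00035) and fell by 0.42 in PLG+EACA+RNase cells against PLG+EACA cells (SE 0.0888, adjusted p = 0.0108). For both genes these calls held under all 20 alternatives, with adjusted p of at most 0.0418 in the comparison of the treatments. Median-of-ratios scaling moved the differences to 0.79 for Bcl2a1b and 0.58 for Bcl2a1d in PLG+EACA cells against untreated cells, and to -0.52 and -0.46 in PLG+EACA+RNase cells against PLG+EACA cells.

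In PLG+EACA+RNase cells against untreated cells, the difference was -0.07 for Bcl2a1d (adjusted p = 0.381) and 0.08 for Bcl2a1b (adjusted p = 0.452), neither of which passed as deposited. Scaling turned the value of Bcl2a1d to 0.11, which did not pass, and brought Bcl2a1b to 0.27, which did (adjusted p = 0.0217, in a range of 0.0217 to 0.824 over the alternatives). Without PLG+EACA+RNase replicate 4, Bcl2a1d was lower at -0.15 (adjusted p = 0.0189, the lowest of a range that reached 0.772).

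Bcl2a1a had 102.6, 90.8, 97.6 and 112.6 FPKM in PLG+EACA+RNase cells, 121.7, 105.9, 116.1 and 119.2 FPKM in PLG+EACA cells and 107.2, 113.6, 108.7 and 102.3 FPKM in untreated cells. Its 3 groups overlapped, and it passed in no comparison as deposited. The differences were 0.10 in PLG+EACA cells and -0.10 in PLG+EACA+RNase cells against untreated cells, and -0.20 between the treatments (adjusted p = 0.0520). After median-of-ratios scaling it was higher in PLG+EACA cells than in untreated cells, at 0.39, and lower in PLG+EACA+RNase cells than in PLG+EACA cells, at -0.30, while the value in PLG+EACA+RNase against untreated cells turned to 0.09. The difference between the treatments also passed without PLG+EACA replicate 2 (adjusted p = 0.0328) or PLG+EACA+RNase replicate 4 (0.0105), within a range of 0.0105 to 0.142. Without that last library Bcl2a1a also passed as lower in PLG+EACA+RNase than in untreated cells, at -0.15 (adjusted p = 0.0429, in a range that reached 0.497).

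Adding the copies together sets aside how reads were shared between copies, though not reads that counting may have dropped or counted more than once. The sum, with the few reads of Bcl2a1c, was 295.2 ± 28.8 reads per 1000000 counted in PLG+EACA+RNase cells, 370.0 ± 17.1 reads per 1000000 counted in PLG+EACA cells and 304.7 ± 8.84 reads per 1000000 counted in untreated cells (SD, n = 4 each). The sum in PLG+EACA cells, 350.2 to 391.4, overlapped neither the 271.1 to 337.0 of PLG+EACA+RNase cells nor the 296.2 to 315.7 of untreated cells. As log2 ratios of group means this was 0.28 in PLG+EACA over untreated cells, -0.33 in PLG+EACA+RNase over PLG+EACA cells and -0.05 in PLG+EACA+RNase over untreated cells, and scaling made these 0.57, -0.43 and 0.14, the last with its sign turned. Bcl2a1d gave 51.4% of these reads in PLG+EACA+RNase cells, 52.6% in PLG+EACA cells and 52.2% in untreated cells. The share of Bcl2a1b was 20.3% in PLG+EACA+RNase cells, 21.7% in PLG+EACA cells and 18.5% in untreated cells, and that of Bcl2a1a was 28.0% in PLG+EACA+RNase cells, 25.6% in PLG+EACA cells and 29.0% in untreated cells. Of the annotated length of Bcl2a1b, 49.1% overlaps exons of Gm29094 on the same strand, which averaged 0.0475 FPKM. How reads in that overlap were counted is not given in the sources used here. The level of Bcl2a1b, its place in the order of levels and its share are therefore uncertain in this respect as well.

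Bcl2l11 (chr2:128126038-128162547, plus strand) encodes BIM, the BH3-only protein that kills myeloid cells when growth factors run short. It was measured at 8.72, 8.24, 7.92 and 7.41 FPKM in PLG+EACA+RNase cells, at 8.22, 10.3, 9.05 and 6.90 FPKM in PLG+EACA cells and at 6.24, 6.65, 6.37 and 5.94 FPKM in untreated cells. Every treated library lay above every untreated one, and PLG+EACA replicate 2 was the highest of the 12. Bcl2l11 rose by 0.41 on the log2 scale in PLG+EACA cells (SE 0.0968, adjusted p = 0.0025) and by 0.33 in PLG+EACA+RNase cells (SE 0.0968, adjusted p = 0.0095) against untreated cells. Scaling raised these to 0.68 and 0.51, and both calls held under all 20 alternatives. The treatments differed by -0.08, PLG+EACA+RNase minus PLG+EACA, with a 95% interval of -0.29 to 0.13, and the value was 0.01 without PLG+EACA replicate 2. The splice forms of BIM, which differ in potency, are not separated here.

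Bid (chr6:120891930-120916853, minus strand) encodes a BH3-only protein that caspase-8 cleaves into its active form. It had 11.7, 11.2, 11.9 and 10.5 FPKM in PLG+EACA+RNase cells, 9.21, 10.4, 9.60 and 8.81 FPKM in PLG+EACA cells and 8.07, 7.66, 7.46 and 6.56 FPKM in untreated cells. No 2 groups overlapped, and PLG+EACA+RNase cells stood highest. Bid rose by 0.58 on the log2 scale in PLG+EACA+RNase cells (SE 0.0701, adjusted p = 2.13e-05) and by 0.34 in PLG+EACA cells (SE 0.0701, adjusted p = 0.0011) against untreated cells. After median-of-ratios scaling these were 0.75 and 0.61, and both calls held under every alternative run. Bid was also higher in PLG+EACA+RNase cells than in PLG+EACA cells, by 0.24 (SE 0.0701, adjusted p = 0.0323).

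That last call did not hold throughout. It was lost without PLG+EACA replicate 1 (adjusted p = 0.0696) or 4 (0.0795) and without PLG+EACA+RNase replicate 1 (0.0760), 2 (0.0735) or 3 (0.0917). It was also lost with no filter (0.0595), with only those 2 groups in the fit (0.0599) and after median-of-ratios scaling, where Bid differed by 0.14 (0.119), and the range over the alternatives was 0.0135 to 0.119. Exons of Bid share 628 bases, 17.7% of its length, with Bcl2l13 on the opposite strand, a gene that averaged 3.78 FPKM. Whether counting used the strand is not given in the sources used here. Bcl2l13 itself was lower in both treatments than in untreated cells as deposited.

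Bax (chr7:45461697-45466898, minus strand) and Bak1 (chr17:27019810-27029009, minus strand) encode the effectors that form pores in the mitochondrion. Bax was measured at 31.3, 31.3, 32.4 and 30.6 FPKM in PLG+EACA+RNase cells, at 27.9, 31.3, 27.2 and 27.5 FPKM in PLG+EACA cells and at 33.7, 36.9, 35.2 and 33.6 FPKM in untreated cells. All treated libraries lay below all untreated ones, and PLG+EACA replicate 2 stood apart from its group. Bax fell by 0.29 on the log2 scale in PLG+EACA cells (SE 0.0511, adjusted p = 0.00035) and by 0.15 in PLG+EACA+RNase cells (SE 0.0511, adjusted p = 0.0239) against untreated cells, beside the median gene's -0.26 and -0.20. After median-of-ratios scaling neither passed, at -0.0012 and 0.04, so the direction of Bax in PLG+EACA+RNase cells flips with the scaling. The call in PLG+EACA+RNase cells was also lost without untreated replicate 2 (adjusted p = 0.0782), untreated replicate 3 (0.0564) or PLG+EACA+RNase replicate 4 (0.0539), in a range of 0.0086 to 0.610 over the alternatives. Between the treatments Bax differed by 0.14 (adjusted p = 0.0708), and passed without PLG+EACA replicate 2 (0.0221, the lowest of a range that reached 0.655).

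Bak1 had 38.8, 32.4, 36.8 and 42.7 FPKM in PLG+EACA+RNase cells, 43.4, 39.9, 42.8 and 50.2 FPKM in PLG+EACA cells and 43.5, 45.5, 47.5 and 43.6 FPKM in untreated cells. The PLG+EACA+RNase libraries lay below the untreated ones, and the PLG+EACA libraries overlapped both other groups. Bak1 fell by 0.26 on the log2 scale in PLG+EACA+RNase cells against untreated cells (SE 0.0844, adjusted p = 0.0173). That call was lost after median-of-ratios scaling, where the difference was -0.07, and without untreated replicate 3 (adjusted p = 0.0506), in a range of 0.0048 to 0.585. In PLG+EACA cells against untreated cells the difference was -0.03, which scaling turned to 0.25 and leaving out PLG+EACA replicate 2 turned to 0.01, none of which passed. Between the treatments it was -0.23 (adjusted p = 0.0768). It passed there after scaling, at -0.33 (adjusted p = 0.0436), and without PLG+EACA+RNase replicate 4 (0.0218), in a range of 0.0218 to 0.201.

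Ratios of 2 genes within a library do not depend on how libraries are scaled. The ratios given here were chosen after the values had been seen and carry no test. Ratios that hold Bcl2 all share its fall and are not independent of each other. Bcl2l11 over Bcl2, the BH3-only gene over the survival gene, averaged 3.02 (2.62 to 3.42) in PLG+EACA+RNase cells, 3.74 (3.12 to 4.23) in PLG+EACA cells and 1.54 (1.45 to 1.61) in untreated cells. Every treated library was above every untreated one. Bcl2 over Bax averaged 0.0849 (0.0792 to 0.1003) in PLG+EACA+RNase cells, 0.0803 (0.0785 to 0.0835) in PLG+EACA cells and 0.117 (0.113 to 0.121) in untreated cells. Here the treated libraries were all below the untreated ones. Bid over Bax averaged 0.361 (0.342 to 0.375) in PLG+EACA+RNase cells, 0.334 (0.321 to 0.352) in PLG+EACA cells and 0.213 (0.195 to 0.240) in untreated cells. Mcl1 over Bcl2 averaged 49.5 (43.6 to 55.0) in PLG+EACA+RNase cells, 55.8 (50.2 to 62.5) in PLG+EACA cells and 28.5 (27.6 to 29.1) in untreated cells. This ratio of survival genes was higher in every treated library than in any untreated one. Bcl2l1 over Bax, at 0.735 (0.680 to 0.780) in PLG+EACA+RNase cells, 0.730 (0.602 to 0.824) in PLG+EACA cells and 0.690 (0.663 to 0.716) in untreated cells, overlapped between all groups. Bcl2l11 over Mcl1, at 0.0611 (0.0557 to 0.0704) in PLG+EACA+RNase cells, 0.0670 (0.0553 to 0.0832) in PLG+EACA cells and 0.0540 (0.04997 to 0.0574) in untreated cells, also overlapped between all groups. Mcl1 over Bak1 averaged 3.52 (3.12 to 4.23) in PLG+EACA+RNase cells and 2.59 (2.42 to 2.73) in untreated cells, which did not overlap. It was 2.90 (2.49 to 3.13) in PLG+EACA cells, which overlapped both other groups. Bid over Bcl2l1 averaged 0.491 (0.446 to 0.551) in PLG+EACA+RNase cells and 0.457 (0.416 to 0.554) in PLG+EACA cells. In untreated cells it was 0.309 (0.279 to 0.362), below every treated library.

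**Figure D3:**
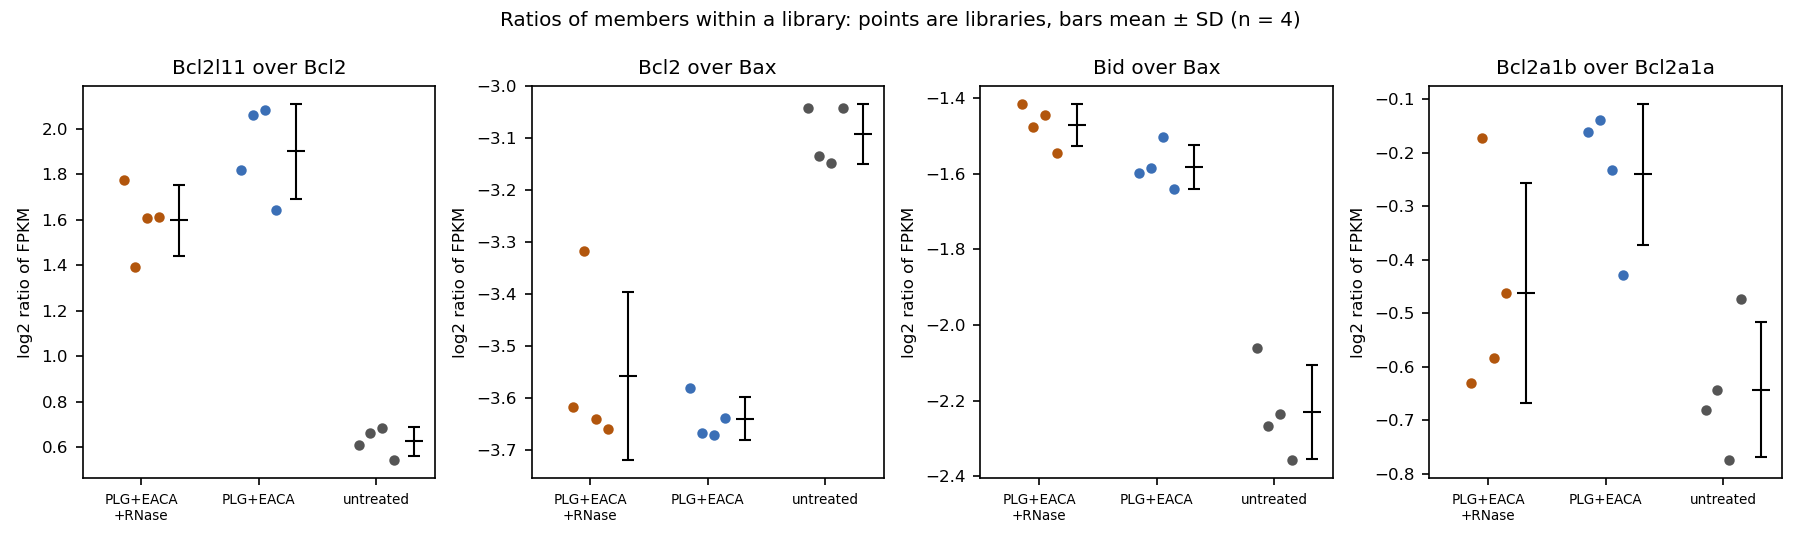
Log2 ratios of FPKM (vertical axes, not starting at 0) for 4 pairs of genes in each library, with PLG+EACA+RNase, PLG+EACA and untreated cells from left to right, points for libraries and bars for mean ± SD (n = 4). Bcl2l11 over Bcl2 and Bid over Bax lie higher, and Bcl2 over Bax lower, in all 8 treated libraries than in untreated cells, while Bcl2a1b over Bcl2a1a overlaps between PLG+EACA+RNase cells and both other groups.

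Of 19 other BCL2 family genes, 12 passed the filter. In PLG+EACA cells against untreated cells 1 was higher and 7 were lower, in PLG+EACA+RNase cells against untreated cells 0 and 7, and between the treatments 3 were higher and 1 lower in PLG+EACA+RNase cells. After median-of-ratios scaling these counts were 3 and 3, 4 and 3, and 2 and 1, and leaving out 1 library gave 0 to 2 higher in PLG+EACA+RNase against untreated cells. Between the treatments it gave 0 (without PLG+EACA+RNase replicate 2) to 4 higher and 0 to 1 lower, and with only those 2 groups in the fit 0 were higher and 0 lower. The shares of all genes are those given above, and the list's median log2 fold changes were -0.33, -0.26 and 0.09 as deposited and -0.07, -0.08 and -0.0058 after scaling, which turned the last. The fall was steepest for Bmf, a BH3-only gene, which averaged 2.49 ± 0.404 FPKM in PLG+EACA+RNase cells, 1.64 ± 0.491 FPKM in PLG+EACA cells and 5.47 ± 0.612 FPKM in untreated cells (SD, n = 4 each). Bmf fell by 1.51 on the log2 scale in PLG+EACA cells (adjusted p = 8.80e-06) and by 1.00 in PLG+EACA+RNase cells (adjusted p = 0.00022) against untreated cells.

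Bbc3 encodes PUMA, the BH3-only protein induced by p53. It averaged 12.7 ± 1.32 FPKM in PLG+EACA+RNase cells, 9.29 ± 1.53 FPKM in PLG+EACA cells and 16.3 ± 1.03 FPKM in untreated cells (SD, n = 4 each), with no overlap between any 2 groups. Against untreated cells Bbc3 fell by 0.79 on the log2 scale in PLG+EACA cells (adjusted p = 5.25e-05), and by 0.52 after scaling. In PLG+EACA+RNase cells it fell by 0.36 (adjusted p = 0.0129), a call that was lost after scaling, at -0.17 (0.134). Bnip3l, a receptor for the removal of mitochondria, fell by 0.59 in PLG+EACA cells and by 0.45 in PLG+EACA+RNase cells, and passed after scaling at -0.30 and -0.27. Bad, another BH3-only gene, fell by 0.33 in each treatment as deposited. After scaling it passed in PLG+EACA+RNase cells, at -0.15, and the call in PLG+EACA cells was lost, at -0.05 (adjusted p = 0.461). Bcl2l13, the gene opposite Bid, fell by 0.34 in PLG+EACA cells and 0.25 in PLG+EACA+RNase cells as deposited, and passed in neither after median-of-ratios scaling. Of the tested BH3-only genes, Bcl2l11 and Bid were higher and Bmf and Bbc3 lower in PLG+EACA cells than in untreated cells under both scalings. Bad was lower there only as deposited. Pmaip1, a further BH3-only gene, passed in neither treatment against untreated cells as deposited. Its differences were 0.01 in PLG+EACA cells (adjusted p = 0.932) and 0.26 in PLG+EACA+RNase cells (0.0806). After scaling it was higher in both, at 0.29 (0.0435) and 0.44 (0.0058).

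Between the treatments, Bnip3, a relative of Bnip3l, averaged 3.56 ± 1.05 FPKM in PLG+EACA+RNase cells and 2.02 ± 0.329 FPKM in PLG+EACA cells (SD, n = 4 each), a log2 difference of 0.66 (adjusted p = 0.0187). Bbc3 was higher by 0.44 in PLG+EACA+RNase than in PLG+EACA cells (adjusted p = 0.0192). Both calls were lost without PLG+EACA+RNase replicate 2, where the adjusted p was 0.0552 for Bnip3 and 0.0611 for Bbc3, and with only those 2 groups in the fit. Bmf differed by 0.51 (adjusted p = 0.0474, lost after scaling at 0.0518) and Bfar, an apoptosis regulator of the endoplasmic reticulum, by -0.32 (adjusted p = 0.0412). Of the 12 fits that each left out 1 library, 10 lost the calls of Bmf and Bfar, with adjusted p of up to 0.122 and 0.119; they held only without PLG+EACA replicate 2 or PLG+EACA+RNase replicate 4.

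**Figure D4:**
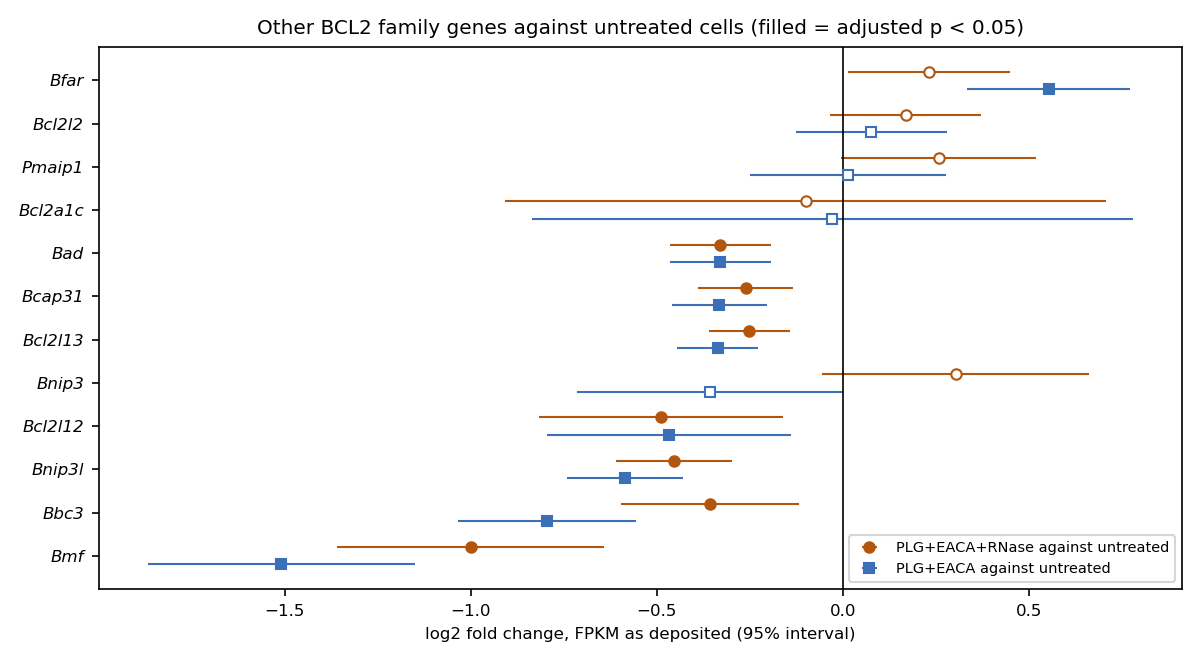
Log2 fold changes (horizontal axis, FPKM as deposited, 95% intervals) of the 12 tested BCL2 family genes outside the 10, with circles for PLG+EACA+RNase and squares for PLG+EACA cells, each against untreated cells, and filled symbols for an adjusted p under 0.05. Bmf lies farthest left in both treatments, at -1.51 in PLG+EACA cells, and Bfar in PLG+EACA cells is the single filled symbol right of 0.

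Downstream of the family act the apoptosome (the complex of APAF1 and caspase-9 that cytochrome c assembles), the caspases and the inhibitors of apoptosis, of which 23 of 24 listed genes were tested. In PLG+EACA cells against untreated cells 9 were higher and 9 lower, in PLG+EACA+RNase cells against untreated cells 4 and 10, and between the treatments 1 was higher and 6 lower in PLG+EACA+RNase cells. Scaling made these 11 and 5, 7 and 5, and 0 and 7. Leaving out 1 library gave 1 to 4 higher in PLG+EACA+RNase against untreated cells, and 0 to 2 higher and 4 to 9 lower between the treatments, where only those 2 groups in the fit gave 0 higher and 1 lower. Of all tested genes 14.9% were higher and 53.4% lower in the first comparison, 16% and 48.4% in the second, and 12.1% and 8.73% between the treatments. After scaling these shares were 27.8% and 25.2%, 25% and 30.2%, and 7.77% and 17.3%. The list's medians as deposited were -0.10, -0.16 and -0.07, and scaling made them 0.17, 0.03 and -0.16, so the first 2 turned sign. The 2 partners of the apoptosome went opposite ways in both treatments against untreated cells. Casp9, the initiator caspase, averaged 3.49 ± 0.497 FPKM in PLG+EACA+RNase cells, 2.94 ± 0.148 FPKM in PLG+EACA cells and 7.44 ± 0.436 FPKM in untreated cells (SD, n = 4 each). It fell by 1.20 on the log2 scale in PLG+EACA cells (adjusted p = 4.08e-07) and by 1.00 in PLG+EACA+RNase cells (adjusted p = 1.55e-06) against untreated cells.

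Apaf1, the scaffold, averaged 10.5 ± 1.03 FPKM in PLG+EACA+RNase cells, 13.7 ± 1.64 FPKM in PLG+EACA cells and 8.74 ± 0.285 FPKM in untreated cells (SD, n = 4 each). Against untreated cells Apaf1 rose by 0.61 on the log2 scale in PLG+EACA cells (adjusted p = 4.34e-05). In PLG+EACA+RNase cells it rose by 0.25 (adjusted p = 0.0173), and by 0.43 after scaling (0.0044). It fell by 0.36 in PLG+EACA+RNase cells against PLG+EACA cells (adjusted p = 0.0141). Casp8, which cleaves BID, averaged 22.3 ± 3.22 FPKM in PLG+EACA+RNase cells, 30.6 ± 4.07 FPKM in PLG+EACA cells and 21.6 ± 0.679 FPKM in untreated cells (SD, n = 4 each). It fell by 0.45 in PLG+EACA+RNase against PLG+EACA cells. Naip5, a sensor of bacterial flagellin, fell by 0.35 in the same comparison. Against untreated cells both were higher in PLG+EACA cells, Casp8 by 0.48 (limma, adjusted p = 0.0011) and Naip5 by 0.35 (0.0016). Neither passed in PLG+EACA+RNase cells against untreated cells, at 0.03 and 0.0024. With only the 2 treated groups in the fit the calls of Casp8 and Apaf1 between the treatments were lost, with adjusted p of 0.0506 and 0.0539, while scaling kept them. Against untreated cells Dffa, the inhibitor of the nuclease that cuts DNA in dying cells, fell by 0.70 in PLG+EACA cells and by 0.76 in PLG+EACA+RNase cells, which scaling made -0.44 and -0.59. Birc5, a gene of dividing cells, fell by 0.81 in PLG+EACA cells and by 0.62 in PLG+EACA+RNase cells, and the mitochondrial nuclease Endog fell by 1.06 in each treatment.

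Among regulators of the family's transcription and protein turnover, 27 of 28 listed genes were tested. In PLG+EACA cells against untreated cells 9 were higher and 12 lower, in PLG+EACA+RNase cells against untreated cells 7 and 11, and between the treatments 2 were higher and 6 lower in PLG+EACA+RNase cells. Scaling made these 14 and 6, 10 and 7, and 0 and 7, and leaving out 1 library gave 0 to 4 higher and 4 to 7 lower between the treatments. With only those 2 groups in the fit 0 were higher and 2 lower there. The shares of all genes, as deposited and after scaling, are those beside the apoptosome list. The medians of the regulators as deposited were -0.05, -0.13 and -0.03, and scaling made them 0.21, 0.05 and -0.12, so again the first 2 turned sign. Mdm2, the ubiquitin ligase that restrains p53, averaged 124.9 ± 7.54 FPKM in PLG+EACA+RNase cells, 119.6 ± 8.54 FPKM in PLG+EACA cells and 60.2 ± 1.20 FPKM in untreated cells (SD, n = 4 each). It rose by 1.05 on the log2 scale in PLG+EACA+RNase cells (adjusted p = 8.75e-08) and by 0.98 in PLG+EACA cells (adjusted p = 1.31e-07) against untreated cells. Pim1, a kinase that phosphorylates BAD, rose by 0.67 in PLG+EACA+RNase cells and by 0.81 in PLG+EACA cells.

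Csf2rb, the signalling chain of the GM-CSF receptor, averaged 364.1 ± 18.7 FPKM in PLG+EACA+RNase cells, 382.3 ± 39.4 FPKM in PLG+EACA cells and 633.6 ± 12.3 FPKM in untreated cells (SD, n = 4 each). It fell by 0.80 on the log2 scale in PLG+EACA+RNase cells (adjusted p = 1.33e-06) and by 0.73 in PLG+EACA cells (adjusted p = 2.11e-06) against untreated cells. Akt1, a kinase of survival signalling, fell by 0.38 in PLG+EACA+RNase cells and by 0.44 in PLG+EACA cells. All of these changes against untreated cells passed under both scalings, but scaling made those of Akt1 -0.19 in PLG+EACA+RNase and -0.15 in PLG+EACA cells, and those of Csf2rb -0.61 and -0.44. Between the treatments, Jak2, the kinase of that receptor, fell by 0.44 in PLG+EACA+RNase cells against PLG+EACA cells, Cdkn1a, a p53 target that halts division, by 0.42, Usp9x, which removes ubiquitin from MCL1, by 0.28, and the NF-kappaB subunit Rela by 0.26, with adjusted p from 0.0110 to 0.0162. The calls of Rela and Jak2 were lost with only those 2 groups in the fit, at an adjusted p of 0.0541 and 0.0584. Cdkn1a averaged 264.0 FPKM in PLG+EACA+RNase, 352.1 FPKM in PLG+EACA and 185.8 FPKM in untreated cells (n = 4 each). Against untreated cells it was higher by 0.50 in PLG+EACA+RNase (limma, adjusted p = 0.00056) and by 0.92 in PLG+EACA cells (4.99e-06). Both passed after scaling, at 0.68 and 1.21.

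The genes outside the lists whose log2(FPKM + 0.5) ran most like a member's over the 12 libraries were taken as a description, with Pearson's r. All points share the libraries, their depth and their 3 groups, so any gene that differs by group can stand high. Bcl2 ran most like Trim37 (0.992) and Myo7a (0.989), and Bcl2l1 like Pdzk1ip1 (0.922) and Ece1 (0.901). For Mcl1 these were Itgav (0.944) and Mtmr12 (0.933). The A1 copies did not share their nearest genes, which were Mbd2 (0.950) and Zfp319 (0.919) for Bcl2a1a, Gtpbp2 (0.971) and Itgb1 (0.948) for Bcl2a1b, and Tmbim6 (0.971) and Cyld (0.971) for Bcl2a1d. Bcl2l11 ran most like Abca8b (0.918) and Sowahc (0.915), and Bid like Nck2 (0.959) and Hspa1a (0.959), a gene whose near-identical copy makes its own value uncertain. For Bax they were Rreb1 (0.948) and Cpsf4 (0.942), and for Bak1 Cnep1r1 (0.979) and Rnpepl1 (0.963).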

How the data were processed

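RNA from 12 libraries, 4 per group, was analysed from the table the authors deposited, which holds FPKM per gene and library. Per the submitters' processing notes, which state no roles, the tools included featureCounts 2.0.6 and STAR 2.7.11a, and the genome build was GRCm38.p6. All per-sample columns were used. Genes that reached 1 FPKM in 4 or more libraries were tested on log2(FPKM + 0.5) with limma 3.58.1 in R 4.3.3, as 3 group means in 1 fit with a mean-variance trend, two-sided, with Benjamini-Hochberg adjustment over the 11165 genes of a comparison and a threshold of 0.05. These steps were tested on simulated data. Values were whole reads within 0.1, which gave the depth, and the chi-square per degree of freedom between replicates was 3.21 to 35.0, so none was a duplicate of another. That spread exceeds counting error. The 10 genes, the 3 lists and the tests were chosen with earlier results of these data known. Named beside the members are Pmaip1, a further BH3-only gene, and the 2 genes per member with the highest correlation. Also named are up to 4 genes per list and comparison with the smallest p. The values of 1 such list gene are not reported here. Alternatives were median-of-ratios scaling, pseudocounts of 0.1 and 1, other filters, a robust variance, 2 groups only, a replicate block and leaving out each library.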

Additional observations from a re-analysis of the deposited data

Results flagged for a closer look

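Bax in PLG+EACA replicate 2, at 31.3 FPKM, stood apart from the other 3 libraries of its group, the nearest of which had 27.9 FPKM. The gap was 0.845 of the group's range. Of the 30 sets of 4 values examined (10 genes in 3 groups) this was the only 1 flagged, and chance flags about 1 in 20. Without this library Bax passed as higher in PLG+EACA+RNase than in PLG+EACA cells, at 0.19 (adjusted p = 0.0221), and remained lower in PLG+EACA than in untreated cells, at -0.33.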

How the results depend on the processing

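Of 600 recomputed fold changes of the 10 genes, 562 kept their direction and their side of the threshold. With the direction kept, 18 lost the call and 11 gained one, and 9 turned direction. Among those that turned, Bcl2l1 in PLG+EACA and Bax in PLG+EACA+RNase against untreated cells also lost their call, both after median-of-ratios scaling. Median-of-ratios scaling turned Bcl2l1 to 0.079 and Bak1 to 0.25 in PLG+EACA against untreated cells, Bcl2l1 to 0.13, Bcl2a1a to 0.086, Bcl2a1d to 0.11, Bax to 0.038 and the summed A1 copies (added after seeing the data) to 0.14 in PLG+EACA+RNase against untreated cells, and Mcl1 to -0.052 between the treatments. It left 1 member lower in each comparison with untreated cells, and 0 higher and 4 lower between the treatments. Over all genes it gave 3103 higher and 2818 lower (as deposited 1661 and 5963) in PLG+EACA against untreated cells, 2789 and 3367 (1783 and 5408) in PLG+EACA+RNase against untreated cells, and 867 and 1927 (1349 and 975) between the treatments. With no filter 3306 genes were higher in PLG+EACA+RNase than in untreated cells, and 0 members were higher and 636 genes lower between the treatments. With only the 2 groups compared there were 0 members higher, 441 genes higher and 351 lower. Leaving out 1 library gave -0.10 to 0.012 for Bak1 in PLG+EACA against untreated cells and -0.17 to 0.0083 for Bcl2l11 between the treatments. It gave 1 to 4 members lower in PLG+EACA+RNase against untreated cells. Between the treatments it gave 0 to 2 members higher, 2 to 4 lower, 514 to 1876 genes higher and 412 to 1304 lower. The cause was not tested. Of 720 recomputed fold changes of named list genes (an alternative chosen after seeing the data) 684 kept their call, 36 lost it and 0 turned; leaving out 1 library gave 0 to 4 other family genes higher between the treatments. Pseudocounts, a filter on the mean and a robust variance changed no call of the 10 genes. Whether the replicate numbers pair the libraries is not given by the labels. Over 12 pairs with the same number, deviations correlated at -0.18 to 0.33, and 3 were over 0.1. Pairs with different numbers ran from -0.34 to 0.12, so these values do not decide it. The replicate block changed no call of the 10 genes, and gave 1691 higher and 6006 lower genes in PLG+EACA against untreated cells, 1838 and 5446 in PLG+EACA+RNase against untreated cells and 1586 and 1092 between the treatments. Depth limits most the genes with few reads per library, of which the lowest value among the 10 genes rested on 308.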

Other observations

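Several BCL2 family genes were near the floor of these libraries and were not tested. Bcl2l10, Bcl2l14 and Bcl2l15 reached at most 0.096, 0.247 and 0.142 FPKM in any library, and the BH3-only genes Hrk and Bik at most 0.014 and 0.729 FPKM. Bok, an effector relative of Bax and Bak1, reached 1.43 FPKM and Bnipl 1.39 FPKM. Bcl2a1c, an A1 copy outside the 10 genes, was tested and passed in no comparison, with adjusted p (limma) from 0.825 to 0.952. It averaged 1.24 ± 0.778 FPKM in PLG+EACA+RNase cells, 1.31 ± 0.800 FPKM in PLG+EACA cells and 1.30 ± 0.627 FPKM in untreated cells (SD, n = 4 each).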
